A study of Homo sapiens with 12 samples.

Results

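The AP-1 and immediate early genes examined here are 10 genes chosen by name: FOS, FOSB, FOSL1 and FOSL2 of the FOS family, JUN, JUNB and JUND of the JUN family, and EGR1, IER2 and IER3. They are 10 of the 56269 genes in the deposited count table, and all 10 are among the 16069 genes that passed a filter on low counts. RNA was sequenced from HEYA8, an established ovarian cancer cell line labelled high grade serous, grown unstimulated in serum-containing medium. There were 12 libraries, 3 in each of 4 groups, and the series describes the replicates as biological. All groups carried a lentiviral construct and were sorted for its red fluorescent marker, so each group is a sorted population. The control vector cells received the vector alone. The ∆GAG-BG cells received betaglycan, the TGF-β co-receptor encoded by TGFBR3, with both serines that carry glycosaminoglycan chains changed to alanine. The S534A cells (CS-BG) and the S545A cells (HS-BG) received betaglycan with 1 of these serines changed, leaving mainly chondroitin sulfate or heparan sulfate chains respectively. In the paper's enzyme digestion, S534A betaglycan held both kinds of chain. No group with unmutated betaglycan was analysed here.

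AP-1 is a dimeric transcription factor in which a JUN protein pairs with itself or with a FOS protein through a leucine zipper and binds DNA at short palindromic sites. FOS, FOSB, JUNB and EGR1 are classic immediate early genes, transcribed within minutes of growth factor, serum or stress signals and soon silent again, because their transcripts and proteins are short-lived. FOSL1 (FRA-1) and FOSL2 (FRA-2) are usually sustained for longer, and FOSL1 is itself a target of ERK signaling and of AP-1 and is often abundant in invasive carcinoma cells.

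Total counts per library ranged from 16410001 to 29504297, the lowest in S534A library 3 and the highest in S534A library 2. The construct gene went against some labels. TGFBR3 was 15.9, 259 and 259 CPM (counts scaled to library size, here with TMM, edgeR's correction for library composition) in the libraries labelled control vector 1, 2 and 3, and 260, 20.3 and 21.4 in those labelled ∆GAG-BG 1, 2 and 3. It was 413 to 476 CPM in S534A and 520 to 574 CPM in S545A. Every direction below that involves the control vector or ∆GAG-BG therefore rests on libraries whose labels TGFBR3 does not bear out, and each group name means the libraries so labelled. In S545A, in ∆GAG-BG and in the control vector, libraries 2 and 3 resembled each other more than other pairs did. The chi-square of their counts over genes, divided by its degrees of freedom, was 1.40 to 1.99, against 17.4 to 78.6 in the other 9 pairs of libraries from one group. Pairs from different groups ran from 3.96 (S534A 1 and S545A 1) to 124 (∆GAG-BG 1 and S534A 2). Some libraries were thus closer to another group than to their own. Control vector 1, for example, was at 7.37 with S534A 1 and at 29.5 with control vector 2. Libraries 2 and 3 of S545A, ∆GAG-BG and the control vector differed by more than sampling noise and were kept as separate libraries. That excess does not show that they came from separate cultures. If they did not, the SDs, SEs and p-values given for n = 3 overstate the replication. Where replicates come from one culture, p-values measure technical spread alone. Of the markers of serous ovarian carcinoma, PAX8 (193 to 295 CPM) and KRT7 (746 to 1140 CPM) were well expressed, WT1 was at 3.42 to 8.38 CPM and EPCAM at 0.37 to 1.77 CPM, and MUC16 had 0 counts in every library, which allows up to 3 counts in each.

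The promoters of the 4 genes whose levels ranged most widely are shown, and that of JUN is shown for its AP-1 type site. Each sequence runs 5′ to 3′ from 250 bases before to 50 bases after the RefSeq start, on GRCh38.p14. A promoter was found for 8 of the 10 genes, and none for FOSL1 or IER3. Capitals mark matches to the CArG box, the site of serum response factor, and to TGANNTCA, TGACG (the core of the cyclic AMP response element) and TATAAA.
EGR1, chr5:138465229-138465528, plus strand: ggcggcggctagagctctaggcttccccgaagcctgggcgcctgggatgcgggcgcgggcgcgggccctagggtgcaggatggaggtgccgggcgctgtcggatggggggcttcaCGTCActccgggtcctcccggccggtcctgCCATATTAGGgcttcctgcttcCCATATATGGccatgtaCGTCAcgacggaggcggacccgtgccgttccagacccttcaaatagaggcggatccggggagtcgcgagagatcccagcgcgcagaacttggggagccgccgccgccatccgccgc
FOS, chr14:75278578-75278877, plus strand: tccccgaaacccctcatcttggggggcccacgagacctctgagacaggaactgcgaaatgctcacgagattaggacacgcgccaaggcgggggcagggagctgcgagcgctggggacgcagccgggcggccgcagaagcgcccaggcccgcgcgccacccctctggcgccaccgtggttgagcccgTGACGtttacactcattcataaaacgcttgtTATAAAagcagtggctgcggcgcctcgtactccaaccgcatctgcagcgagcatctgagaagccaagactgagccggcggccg
FOSB, chr19:45467746-45468045, plus strand: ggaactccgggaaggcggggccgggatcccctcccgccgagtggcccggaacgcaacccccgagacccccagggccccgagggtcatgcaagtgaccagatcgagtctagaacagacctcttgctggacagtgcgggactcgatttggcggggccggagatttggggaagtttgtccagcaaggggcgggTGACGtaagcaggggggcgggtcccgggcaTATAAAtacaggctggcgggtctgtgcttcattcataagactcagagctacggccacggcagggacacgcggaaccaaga
JUNB, chr19:12791236-12791535, plus strand: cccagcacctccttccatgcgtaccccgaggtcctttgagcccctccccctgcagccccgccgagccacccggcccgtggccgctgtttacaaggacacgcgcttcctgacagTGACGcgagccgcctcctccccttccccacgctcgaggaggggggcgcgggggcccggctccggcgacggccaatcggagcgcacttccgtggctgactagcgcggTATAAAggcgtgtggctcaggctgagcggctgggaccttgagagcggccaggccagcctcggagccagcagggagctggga
JUN, chr1:58783998-58784297, minus strand: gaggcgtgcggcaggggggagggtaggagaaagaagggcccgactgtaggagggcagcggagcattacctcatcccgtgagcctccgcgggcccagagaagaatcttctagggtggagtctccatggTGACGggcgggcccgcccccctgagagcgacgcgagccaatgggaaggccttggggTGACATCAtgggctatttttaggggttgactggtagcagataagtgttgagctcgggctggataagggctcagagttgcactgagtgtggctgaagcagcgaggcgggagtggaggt

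Motifs were searched on both strands, except TATAAA, which was searched on the strand of the gene alone. Only the stretch from 250 bases before to 50 bases after the start was searched. Within it, EGR1 was the 1 member promoter with a CArG box and held 2 of them, beginning at -105 and -83 from the start. CArG boxes farther upstream, in FOS or any other member, were not searched for. A CArG box was found in 1.29% of 35116 promoters of the same length. TATAAA was found in the FOS, FOSB and JUNB promoters, at -33, -30 and -31, and in 7.33% of all promoters. TGANNTCA, the longer AP-1 and CREB type pattern with any 2 bases in its middle, was found in JUN at -67 and in JUND at -200 and -54. It was found in 11.5% of promoters. The match in JUN reads TGACATCA, which is not a palindrome, and those in JUND read TGACGTCA and TGAGCTCA. TGANTCA, the shorter AP-1 pattern with any 1 base in its middle, was found in FOSL2 alone of the members and in 7.71% of promoters. TGACG, which can lie inside TGANNTCA as it does in JUND, was found in all 8 member promoters and in 24.6% of promoters. CCGGAA, an ETS core, was found in FOSB and IER2 and in 17.2% of promoters. These matches describe the letters of the sequence and are no evidence of binding in these cells.

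Compared per length of transcript (CPM per kilobase of exon in the table), FOSL1 was the most abundant member, at 307 ± 22.2 (SD over 12 libraries). JUN came second at 82.4 ± 15.4. The lowest FOSL1 library, at 276, lay above the highest JUN library, at 115. IER3 followed at 46.3 ± 6.32 and FOSL2 at 37.1 ± 4.14. Their ranges overlapped, although IER3 was above FOSL2 in 12 of 12 libraries. JUND (23.1 ± 4.49), JUNB (18.4 ± 7.44) and IER2 (14.9 ± 1.67) formed a middle range, in which JUND was above JUNB in 9 libraries and JUNB above IER2 in 11. FOS (1.48 ± 0.72), EGR1 (0.92 ± 1.55) and FOSB (0.36 ± 0.11) were the lowest, and EGR1 was above FOSB in only 5 of 12 libraries. The 3 lowest members rested on few reads, with 6 to 489 counts per library for EGR1, 39 to 320 for FOS and 24 to 89 for FOSB.

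**Figure D1:**
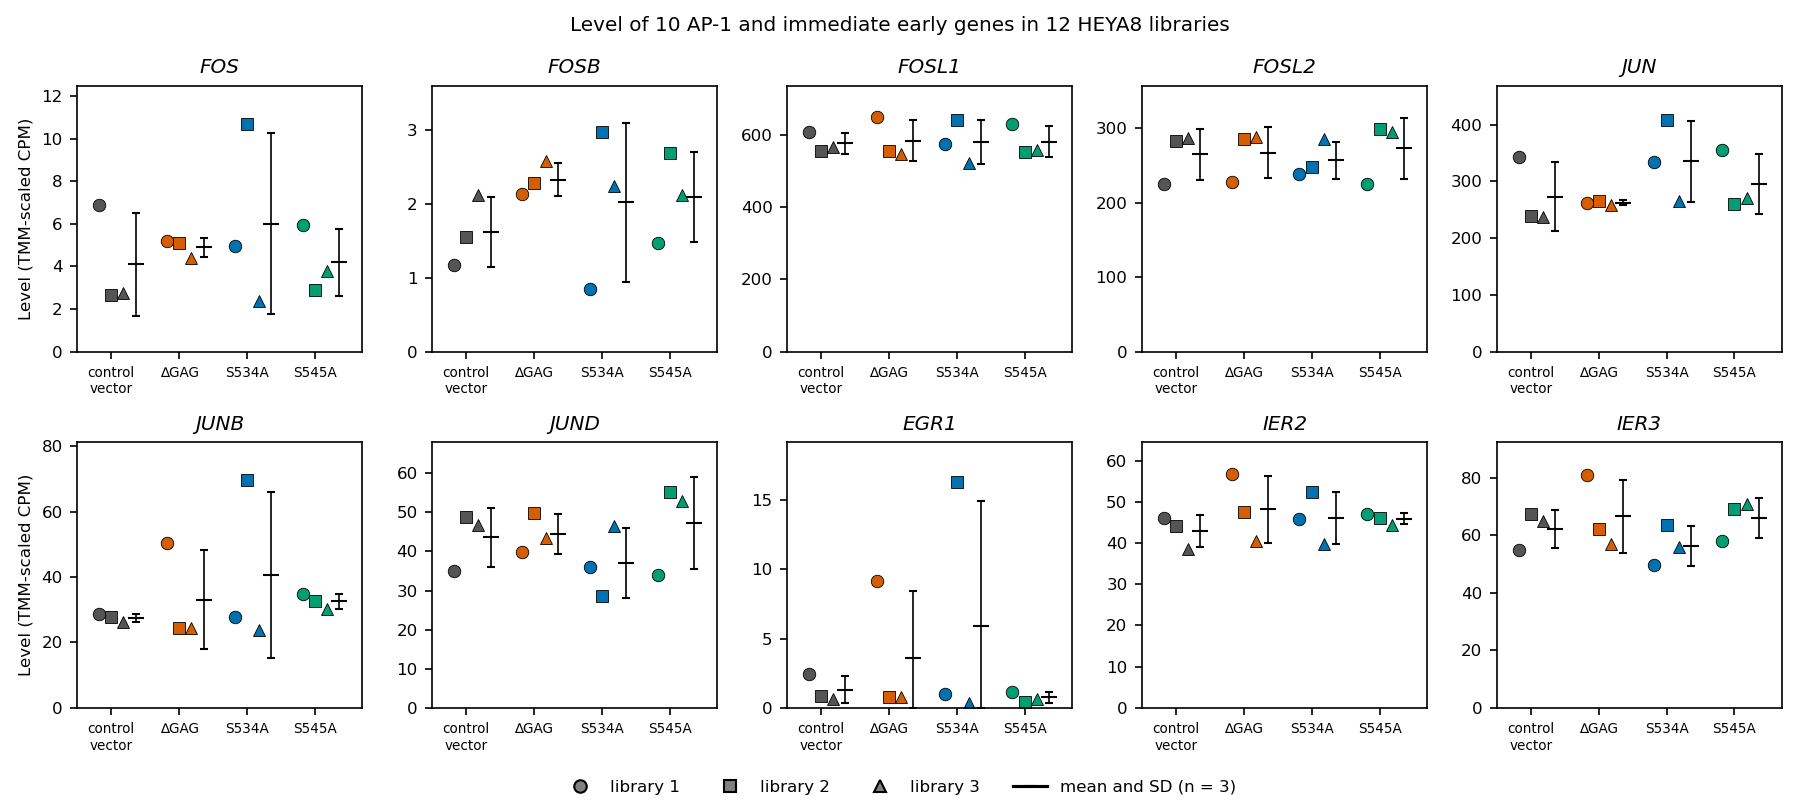
Level of each member in each library (vertical axis, TMM-scaled CPM, from 0), by group on the horizontal axis. Symbols mark libraries 1, 2 and 3, and the bars give the mean and SD of 3 libraries, with the lower bar stopped at 0. EGR1 and JUNB are high in ∆GAG-BG 1 and S534A 2, while FOSL1 stays between 521 and 649.

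Within the FOS family, FOSL1, which lacks the transactivation domain of FOS and needs a JUN partner, lies on chromosome 11 (65892049 to 65900573, minus strand, GRCh38). It was 607, 555 and 564 CPM in control vector, 649, 554 and 546 in ∆GAG-BG, 573, 641 and 521 in S534A and 630, 552 and 558 in S545A. Every group held a library above 600, and the highest library was 1.25 times the lowest. The group means differed little, at 575 ± 28.0, 583 ± 57.3, 579 ± 60.4 and 580 ± 43.1 CPM in the same order (SD, n = 3). Its spread was narrower than that of most genes, since only 15.7% of the genes tested had a smaller SD of log2(CPM + 1) over the 12 libraries.

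FOSL2, on chromosome 2 (28392448 to 28417312, plus strand), was 226, 283 and 286 CPM in control vector, 229, 286 and 288 in ∆GAG-BG, 238, 248 and 285 in S534A and 225, 299 and 295 in S545A. The first library was the lowest of each group. FOS, on chromosome 14 (75278774 to 75282230, plus strand), was 6.88, 2.64 and 2.74 CPM in control vector, 5.17, 5.11 and 4.38 in ∆GAG-BG, 4.98, 10.7 and 2.37 in S534A and 5.93, 2.89 and 3.76 in S545A. S534A held both the highest and the lowest FOS library, which differed 4.51-fold. FOSB, on chromosome 19 (45467995 to 45475179, plus strand), was 1.18, 1.56 and 2.11 CPM in control vector, 2.13, 2.28 and 2.57 in ∆GAG-BG, 0.85, 2.97 and 2.25 in S534A and 1.47, 2.69 and 2.12 in S545A. Its highest library was 3.48 times its lowest, at 24 to 89 reads per library, and both lay in S534A.

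Within the JUN family, JUN, the founding AP-1 subunit and a target of JNK, lies on chromosome 1 (58780788 to 58784327, minus strand). It was 343, 238 and 238 CPM in control vector, 262, 266 and 258 in ∆GAG-BG, 334, 408 and 265 in S534A and 356, 260 and 270 in S545A. The 3 ∆GAG-BG libraries lay close together, and each of the other groups held a library of at least 343. JUNB, which often opposes JUN at shared targets, lies on chromosome 19 (12791496 to 12793315, plus strand). It was 28.8, 27.7 and 26.3 CPM in control vector, 50.6, 24.4 and 24.4 in ∆GAG-BG, 27.9, 69.8 and 23.9 in S534A and 34.8, 32.7 and 30.2 in S545A. Apart from ∆GAG-BG 1 and S534A 2, its libraries stayed between 23.9 and 34.8. JUNB shares 259 exon bases with HOOK2 on the opposite strand (204 to 588 counts per library), and because the strand setting of the counting is not given in the sources used here, reads of that stretch cannot be told apart. JUND, the most constitutive JUN gene, lies on chromosome 19 (18279760 to 18281622, minus strand) and was 35.1, 48.9 and 46.8 CPM in control vector, 40.0, 49.9 and 43.5 in ∆GAG-BG, 36.1, 28.6 and 46.5 in S534A and 33.9, 55.3 and 52.9 in S545A. Its lowest library was S534A 2, the library where FOS, FOSB, JUN, JUNB and EGR1 were highest.

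EGR1, a zinc finger factor that is induced with FOS but is no AP-1 subunit, lies on chromosome 5 (138465490 to 138469315, plus strand). It was 2.46, 0.85 and 0.67 CPM in control vector, 9.16, 0.79 and 0.81 in ∆GAG-BG, 1.03, 16.3 and 0.36 in S534A and 1.16, 0.44 and 0.65 in S545A. In reads, S534A 2 held 489 and ∆GAG-BG 1 held 202, against 6 to 71 in the other 10 libraries. Its highest library was 44.8 times its lowest, and 99.9% of the genes tested had a smaller SD. Both extremes belonged to S534A, so the group mean of 5.90 ± 9.02 CPM was smaller than its SD.

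IER2, an immediate early gene for a nuclear protein, on chromosome 19 (13150415 to 13154908, plus strand), was 46.0, 44.1 and 38.6 CPM in control vector, 56.6, 47.5 and 40.4 in ∆GAG-BG, 45.9, 52.5 and 39.7 in S534A and 47.1, 46.1 and 44.4 in S545A. IER3 (IEX-1), a stress-induced regulator of survival, on chromosome 6 (30743199 to 30744554, minus strand), was 54.8, 67.3 and 64.9 CPM in control vector, 80.9, 62.2 and 56.8 in ∆GAG-BG, 49.5, 63.5 and 55.8 in S534A and 57.8, 69.2 and 70.8 in S545A. Both were highest in ∆GAG-BG 1. Both overlap an antisense gene that held no more than 2 counts in any library.

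FOSL1 made up 88.7% ± 1.57 of the FOS family per length (SD over 12 libraries, range 87.1 to 91.0%), FOSL2 10.8% ± 1.67, FOS 0.42% and FOSB 0.11%. JUN made up 66.2% ± 4.87 of the JUN family (60.1 to 73.6%), JUND 19.3% and JUNB 14.5%. The JUND share was 15.4% ± 6.53 in S534A and 20.4 to 20.7% on average in the other groups (n = 3). It was 9.07% in S534A 2, 13.2 to 17.4% in the 4 libraries numbered 1 and 21.3 to 24.5% in the other 7. The JUNB share was 22.7% in S534A 2 and 22.5% in ∆GAG-BG 1, against 11.6 to 14.8% in the other 10 libraries. FOS-family RNA exceeded JUN-family RNA 2.24-fold in S534A 2 and 2.63- to 3.19-fold in the other 11 libraries.

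**Figure D2:**
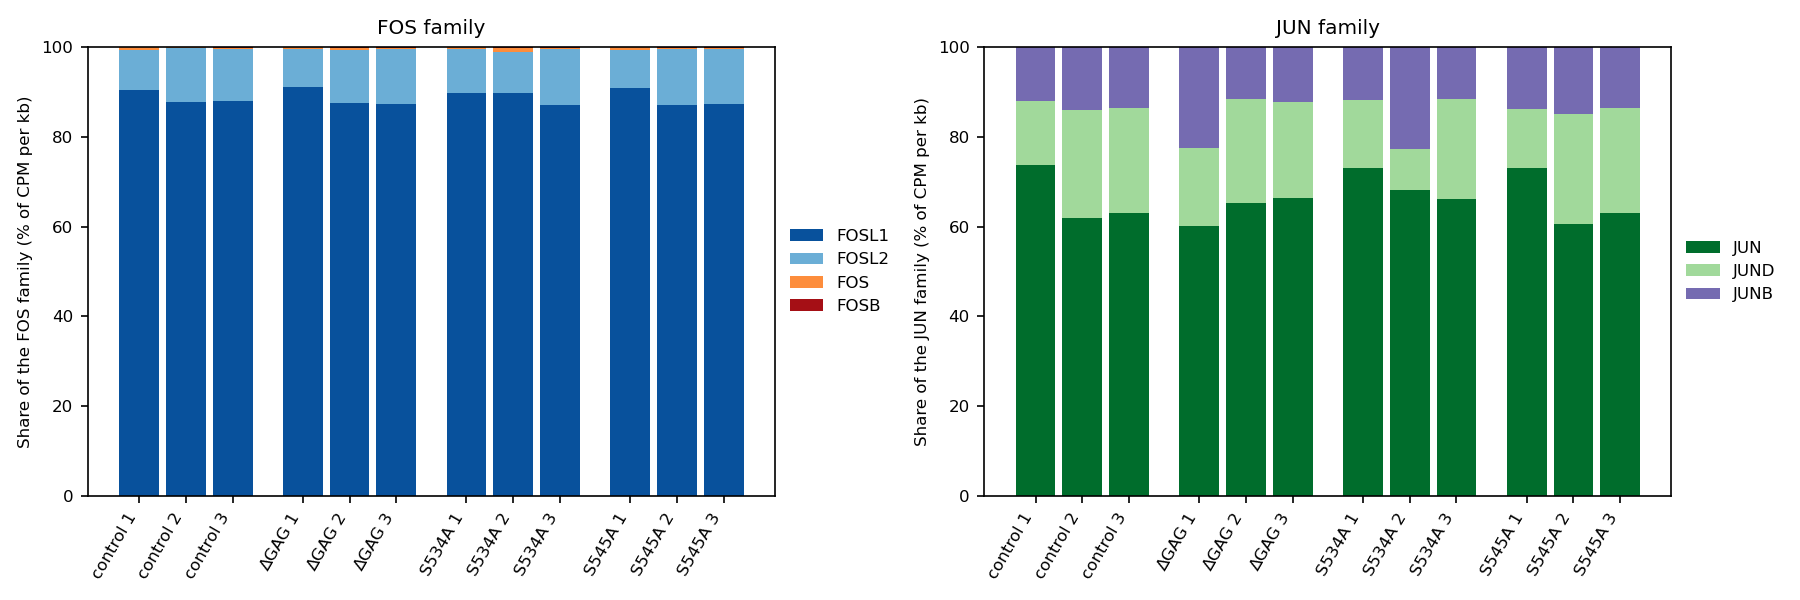
Share of each gene in its family, in percent of summed CPM per kilobase (vertical axis, 0 to 100), for each of 12 libraries. FOSL1 takes 87.1 to 91.0% of the FOS family in every library, and the JUND share is lowest in S534A 2.

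Variation lay mostly between libraries of one group. Differences between the 4 groups took 0.38% of the variance of FOSL1, 9.28% of FOS, 9.59% of JUNB, 14.7% of EGR1 and at most 28.8% (JUN). The median was 14.4% over the 10 members and 20.8% over all genes tested. S534A 2 was the highest library for 5 members and for 26.1% of all genes tested, and ∆GAG-BG 1 was the highest for 3 members and for 16.3% of all genes. Both libraries therefore stood apart across the transcriptome. S534A 2 lay above the 10 libraries other than itself and ∆GAG-BG 1 for 7 of 10 members, against 28.7% of all genes, and ∆GAG-BG 1 did so for 5 members, against 21.3%. Both did so for EGR1, JUNB, FOSL1 and IER2, against 7.6% of all genes. These 2 libraries were singled out by their EGR1 level after the values were seen, so the counts are a description. Relative to the median of the other 10 libraries, S534A 2 held 20.4 times the EGR1, 2.62 times the FOS, 2.51 times the JUNB and 1.54 times the JUN. ∆GAG-BG 1 held 11.4 times the EGR1 and 1.82 times the JUNB, but 1.27 times the FOS and 0.99 times the JUN.

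**Figure D3:**
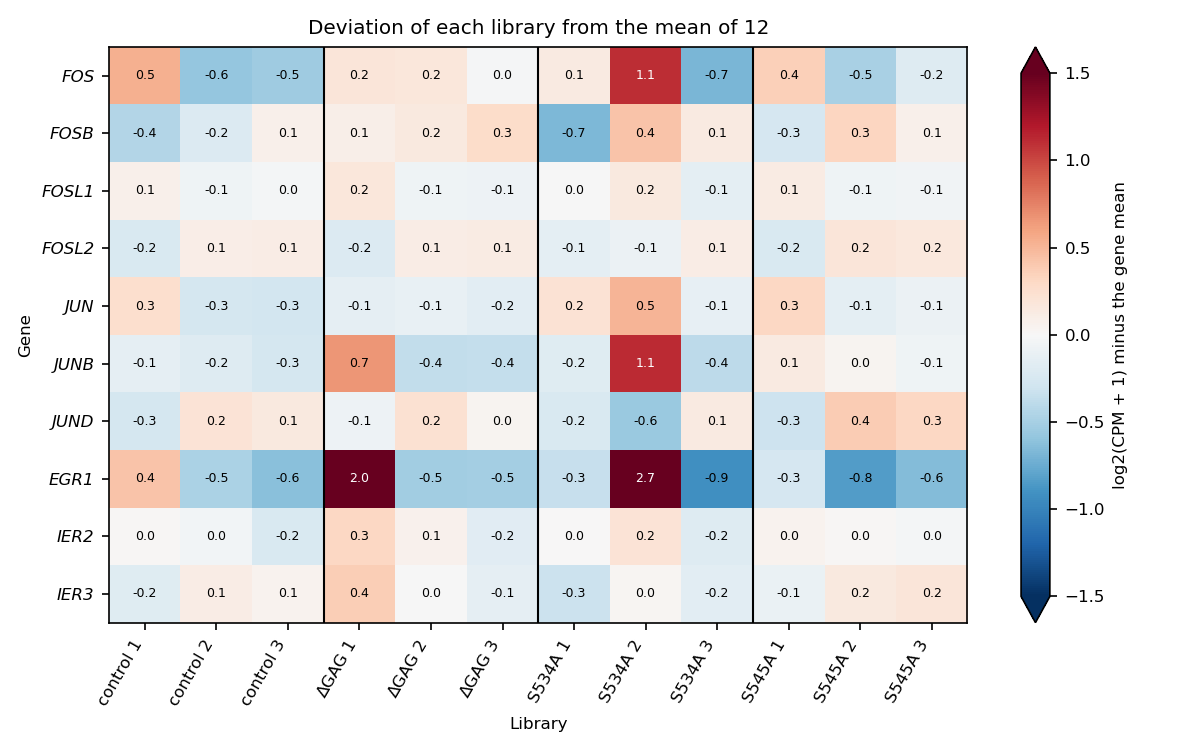
Deviation of each library (columns) from the gene's mean over 12 libraries, in log2(CPM + 1), for the 10 members (rows). Red is above and blue below the mean, and colors stop at 1.5. EGR1 and JUNB are far above their means in ∆GAG-BG 1 and S534A 2, and FOSL2 and JUND lie below theirs in every library numbered 1 and in S534A 2.

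A second split of the libraries ran through FOSL1, FOSL2, JUND and EGR1. In the 4 libraries numbered 1 together with S534A 2, FOSL1 was 573 to 649 CPM, against 521 to 564 in the other 7. FOSL2 was 225 to 248 against 283 to 299, JUND 28.6 to 40.0 against 43.5 to 55.3, and EGR1 1.03 to 16.3 against 0.36 to 0.85. These 4 of 10 members did not overlap between the 5 and the 7 libraries, as did 9.74% of all genes tested. The 5 libraries were grouped by expression after the values were seen and the labels give no batch or date, so no test was made and what sets them apart was not tested.

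Whether the 4 cell populations differ in these genes was tested in 1 model of the 12 libraries with edgeR (quasi-likelihood), adjusting p by Benjamini-Hochberg over 16069 genes, at a threshold of 0.05. No member was called in any of the 6 comparisons of 2 groups, which share libraries, nor in the test of any difference among the 4 groups. The background was 0% of genes called in each pairwise comparison and 0.00622% in the 4-group test. DESeq2 and limma-voom also called no member. At an unadjusted edgeR p under 0.05, 1 of the 60 member tests passed. In the 4-group test, unadjusted p ran from 0.139 (EGR1) to 0.998 (FOSL1), and every adjusted p was 1.00. No member passed an unadjusted p of 0.05 there, against 1.55% of all genes. An exact permutation test of 3 against 3 libraries cannot go below 0.1.

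Comparing S545A with S534A asks whether cells with mainly heparan sulfate chains on betaglycan differ from those with mainly chondroitin sulfate chains. EGR1 was lower in S545A by edgeR, with a log2 fold change of -2.98 ± 1.32 (SE), an unadjusted p of 0.0442 and an adjusted p of 0.70. The groups overlapped, and the exact permutation test gave p = 0.7. At that unadjusted threshold 4.78% of all genes passed. Without S534A 2 the log2 fold change was 0.022, which lies close to 0. JUND had the largest positive value, at 0.36 ± 0.21 (edgeR, adjusted p = 0.70), which was 0.20 without S534A 2, 0.24 without S545A 2 and 0.55 without either S534A 3 or S545A 1. FOSL1 was level, with a log2 fold change of 0.0036 and a 95% interval from -0.22 to 0.23. Of the 10 members, 5 were above and 5 below 0, with a median of -0.0016 against -0.00024 for all genes, and no member had groups that did not overlap, against 10.1% of all genes.

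Against ∆GAG-BG, which has no chains, the S534A values ran from -0.27 ± 0.21 for JUND to 0.75 ± 1.15 for EGR1 on the log2 scale (edgeR, adjusted p = 0.89 and 0.91). Without S534A 2 the EGR1 value was -2.25 and that of JUND -0.11, and without ∆GAG-BG 1 the EGR1 value was 2.92. Without S534A 3 the JUND value was -0.45. No member passed an unadjusted p of 0.05, against 2.99% of all genes, and none had groups that did not overlap, against 5.66%. The S545A values against ∆GAG-BG ran from -2.23 ± 1.34 for EGR1 to 0.17 ± 0.18 for JUN (edgeR, adjusted p = 1.00 for both). Without ∆GAG-BG 1 the EGR1 value was -0.067, and the JUN value was 0.023 without S545A 1 and 0.26 without S545A 2. No member passed the unadjusted threshold, against 1.1% of all genes, or had groups that did not overlap, against 5.05%. The median over the members was -0.034 in the first of these comparisons and -0.019 in the second.

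Of the S534A values against the control vector, 7 of 10 were above 0, with a median of 0.20 on the log2 scale (all genes 0.0078). Without S534A 2 that median was -0.086 (all genes -0.0027). EGR1 was highest at 2.16 ± 1.23 and JUND lowest at -0.24 ± 0.21 (edgeR, adjusted p = 0.87 for both). The EGR1 value turned to -0.85 without S534A 2, and the JUND value was -0.082 without S534A 2 and -0.43 without S534A 3. No member passed an unadjusted p of 0.05, against 3.45% of all genes, and no member had groups that did not overlap, against 7.65%.

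In S545A against the control vector, JUNB was the 1 member whose groups did not overlap, against 8.82% of all genes. It was 30.2 to 34.8 CPM in S545A and 26.3 to 28.8 in the control vector, so that all 3 S545A libraries were higher. Its log2 fold change was 0.24 ± 0.37 in the fit of 12 libraries, with an adjusted edgeR p of 1.00. The exact permutation p was 0.1, the smallest that 3 against 3 can give, and did not use the library numbers as pairs. In a fit of these 2 groups alone, the log2 fold change was also 0.24. There the unadjusted edgeR p was 0.022 and the adjusted p 0.9998, and 408 of 15616 genes passed an unadjusted p of 0.05. Groups that did not overlap, with S545A higher, were found for 4.73% of all genes. FOSB had the largest value, 0.37 ± 0.39, and EGR1 the smallest, -0.82 ± 1.41 (edgeR, adjusted p = 1.00 for both). The EGR1 value was 0.017 without control vector 1, and the FOSB value was 0.16 without S545A 2, 0.57 without S545A 1 and 0.62 without control vector 3. In the fit of 12 libraries no member passed an unadjusted p of 0.05, against 1.05% of all genes.

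For ∆GAG-BG against the control vector, FOSB was 2.13 to 2.57 CPM in ∆GAG-BG and 1.18 to 2.11 in the control vector. The highest control library and the lowest ∆GAG-BG library were 2.11 and 2.13, or 54 and 47 reads. Its log2 fold change was 0.53 ± 0.39 (edgeR, adjusted p = 1.00, exact permutation p = 0.1), and groups that did not overlap, with ∆GAG-BG higher, were found for 2.74% of all genes (4.87% in either direction). EGR1 had the largest value, 1.41 ± 1.25, which was -0.76 without ∆GAG-BG 1. JUN had the smallest, -0.058 ± 0.18, which was 0.14 without control vector 1. Both had an adjusted edgeR p of 1.00, and no member passed an unadjusted p of 0.05, against 0.871% of all genes.

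**Figure D4:**
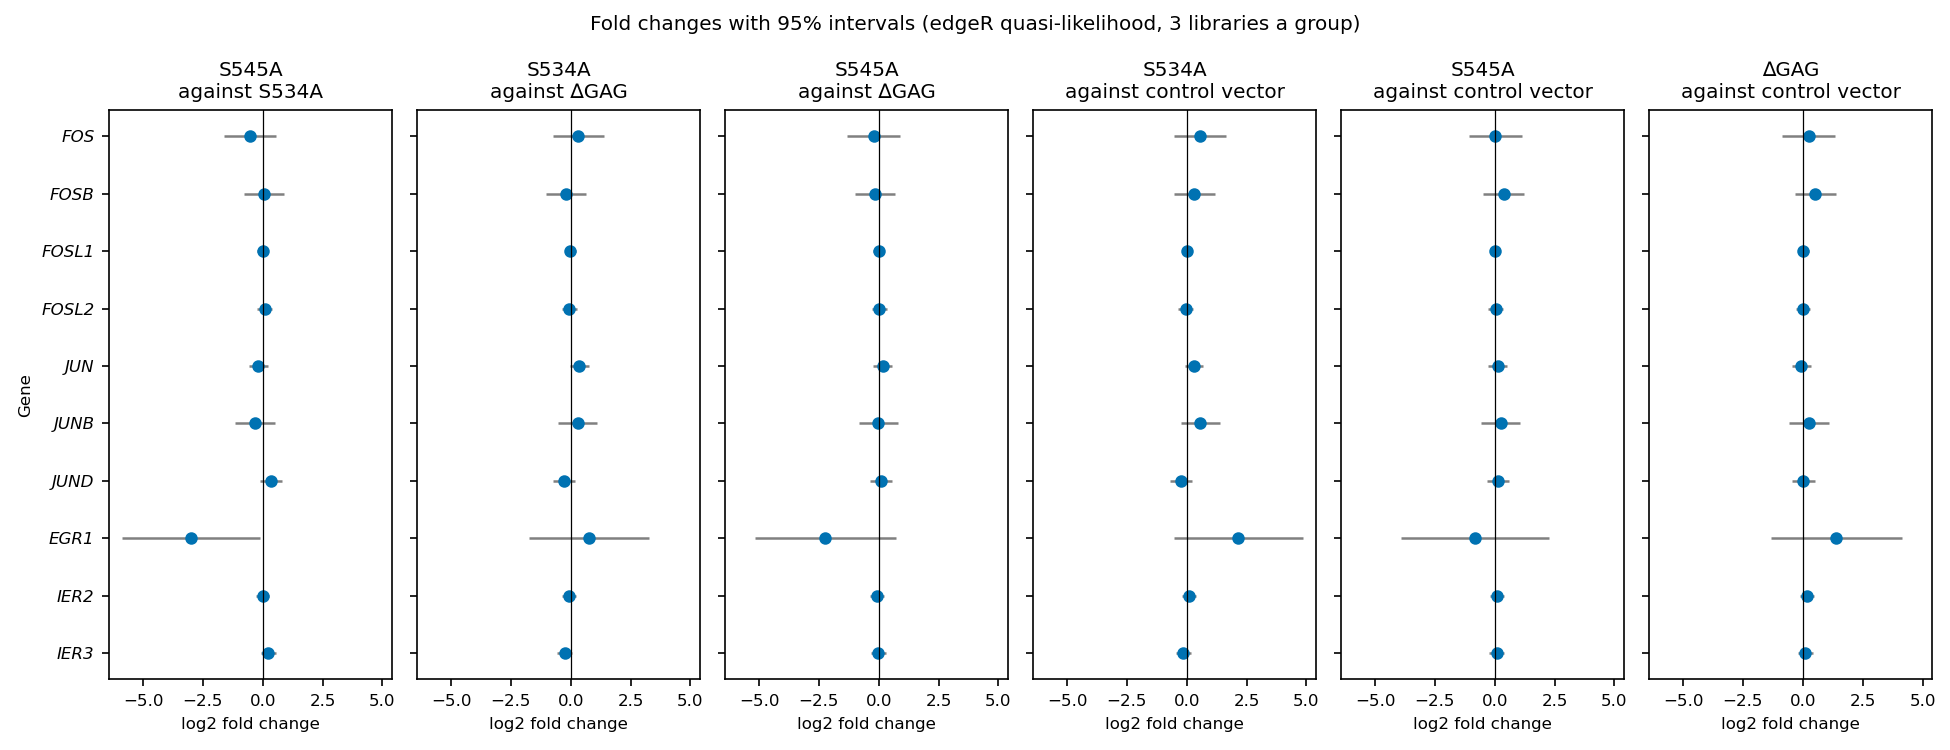
Log2 fold change (horizontal axis) of the 10 members (vertical axis) in the 6 comparisons of 2 groups, with 95% intervals from edgeR's quasi-likelihood fit of 12 libraries. All intervals span 0 except that of EGR1 in S545A against S534A, which ends at -0.092, and those of FOSL1 are narrowest.

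The precision differed greatly between members. The SE was 0.10 for FOSL1 in all 6 comparisons, where no log2 fold change was above 0.019 and the 95% intervals reached from -0.24 to 0.24 at most. For EGR1 the SE was 1.15 to 1.41, so that changes of several fold in either direction were not detectable in this design. The values for FOS (SE 0.49 to 0.50), FOSB (0.38 to 0.39) and JUNB (0.37 to 0.38) lay between.

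Genes around the members were read from 5 lists, and in no list was a gene called in any of the 6 comparisons by edgeR. At an unadjusted edgeR p under 0.05, 0 to 2 of the 20 other immediate early genes tested passed in a comparison, 0 to 1 of 13 AP-1 targets, 0 to 2 of 10 bZIP partners, 0 to 1 of 21 upstream kinases and factors, and 0 to 5 of 10 endoplasmic reticulum stress genes. Over all genes the share ran from 0.871% to 4.78% by comparison. The 5 stress genes had lower fitted means in S534A than in ∆GAG-BG, where 2.99% of all genes passed. In that comparison 0 of the 10 had groups that did not overlap, against 5.66% of all genes. Of the 5, HSPA5 was 11864, 1256 and 1228 CPM in ∆GAG-BG 1, 2 and 3 and 1250, 287 and 1985 in S534A. DDIT3 was 208, 6.92 and 7.68 CPM in ∆GAG-BG and 7.25, 7.37 and 14.4 in S534A. DESeq2 and limma-voom also called 0 genes of these lists at an adjusted p under 0.05. Of 23 other immediate early genes, 20 passed the filter and EGR2, EGR3 and EGR4 did not, with at most 4 counts in any library. The 3 with the smallest 4-group p were ZFP36, BTG2 and NR4A1. ZFP36, which destabilizes immediate early transcripts, ranged from 8.49 to 13.6 CPM, highest in ∆GAG-BG 1. BTG2, an antiproliferative gene, was 18.5 CPM in S534A 2 and 7.40 to 11.1 elsewhere. NR4A1, an orphan nuclear receptor, was lowest in S534A 2, at 5.21 CPM against 7.43 to 12.2. For none was an adjusted 4-group p below 1.00. S534A 2 was above the other 10 libraries for 8 of the 20 and below for 3, and both it and ∆GAG-BG 1 were above for 5. Over all genes these shares were 28.7%, 27.9% and 7.6%. ∆GAG-BG 1 was above the other 10 for 8 of the 20 and below for 5, against 21.3% and 21.2% of all genes. The immediate early genes thus did not all move with EGR1.

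Of 15 AP-1 target genes, 13 passed the filter, and MMP3 and MMP10 did not. S534A 2 was above the other 10 libraries for 11 of the 13 and ∆GAG-BG 1 for 7, and both were above for the same 7 genes. The backgrounds for the 2 libraries were 28.7% and 21.3% of all genes, and 7.6% for both. These 2 libraries were singled out by EGR1 after the values were seen, and the lists were chosen with earlier results known. The counts for this list and the others are therefore a description. HMOX1, which degrades heme, was 18.4 CPM in S534A 2 and 11.1 to 15.7 elsewhere. MMP9, a gelatinase, was 4.40 CPM in S534A 2, 1.09 in ∆GAG-BG 1 and 0.18 to 1.59 in the other 10. PLAUR, the urokinase receptor, was 224 CPM in S534A 2 and 98.3 to 132 elsewhere. Chosen after their values were seen, CXCL8, a neutrophil chemokine, was 168 and 78.5 CPM in S534A 2 and ∆GAG-BG 1 in turn, against 8.13 to 45.9 elsewhere, and VEGFA, an angiogenic factor, 85.6 and 76.1 against 20.2 to 37.7 elsewhere. The median log2 fold change of the 13 was 0.33 in S534A and 0.047 in S545A against the control vector, 0.15 in ∆GAG-BG against the control vector, 0.23 in S534A and -0.16 in S545A against ∆GAG-BG, and -0.37 in S545A against S534A. Without S534A 2, the 3 medians that involve S534A were -0.091 against the control vector, -0.20 against ∆GAG-BG and 0.17 for S545A against S534A, each of the opposite sign. The median of all genes stayed within 0.0078 of 0 in these fits.

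Of 12 other bZIP partners of AP-1, 10 passed the filter, and BATF and MAF did not. ATF7 was lowest in S534A 1, at 22.4 CPM, and otherwise 23.7 to 31.8. BATF2 was 3.94 CPM in S534A 2 and 7.77 to 10.5 elsewhere. Of the 10, ∆GAG-BG 1 was above the other 10 libraries for 6 and below for 0, against 21.3% and 21.2% of all genes. S534A 2 was above for 1 and below for 4, against 28.7% and 27.9%. All 21 upstream kinases and factors passed, and their summed level varied only from 1520 to 1696 CPM. MAP2K1 (MEK1), which activates ERK, was 103 CPM in S534A 2 and 53.3 to 71.5 elsewhere. MAPK10 (JNK3) held at most 14 counts in a library. CREB1 was 61.5 CPM in S534A 2 and 76.1 to 89.7 elsewhere. S534A 2 was above the other 10 libraries for 2 of the 21, MAP2K1 and SRF, and below for 11, against 28.7% and 27.9% of all genes. ∆GAG-BG 1 was above for 2 and below for 8, against 21.3% and 21.2%.

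Endoplasmic reticulum stress genes separated the 2 libraries in which EGR1 was high. All 10 were above the other 10 libraries in ∆GAG-BG 1, whereas in S534A 2 none was above and 7 were below. Over all genes, 21.3% were above in ∆GAG-BG 1, and 28.7% were above and 27.9% below in S534A 2. Their summed level was 18524 CPM in ∆GAG-BG 1, 1016 CPM in S534A 2 and 3113 to 6954 CPM in the other 10. DDIT3 (CHOP) was 208 CPM in ∆GAG-BG 1 and 7.37 in S534A 2, against 5.12 to 47.2 in the other 10. PDIA4 was 599 and 65.1 against 108 to 220, and SDF2L1 67.9 and 9.14 against 8.99 to 21.4. In S534A 2, PDIA4 was thus below the other 10, while DDIT3 and SDF2L1 were within their range. HSPA5 alone held 11864 CPM of the sum in ∆GAG-BG 1 and 287 CPM in S534A 2. EGR1 was high in the libraries with the highest and the lowest summed level. The part of the stress genes in the EGR1 level was not tested.

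The profiles most like that of EGR1 over the 12 libraries, by the mean absolute difference of centred log2(CPM + 1), were ALOX5AP (0.24), CXCL2 (0.26), MIR3142HG (0.30), CXCL3 (0.31) and SERPINA1 (0.34). CXCL2 was 46.9 CPM in S534A 2, 26.8 in ∆GAG-BG 1 and 3.94 to 11.0 in the other 10. Those most like FOS were RELN (0.10), CXXC5 (0.15), HSPA1L (0.16), FZD8 (0.17) and ADTRP (0.17). ADTRP was 108 CPM in S534A 2, 68.1 in ∆GAG-BG 1 and 41.5 to 78.1 in the other 10. No gene was named in both groups of 5.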

How the data were processed

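RNA-seq of 12 HEYA8 libraries, 3 for each of control vector, ∆GAG-BG, S534A and S545A, was used. Libraries were made with a directional kit and read in pairs. The authors deposited raw counts of reads per gene, without normalization. Reads had been checked with FastQC, trimmed with Trim Galore 0.4.5 and counted with featureCounts. The submitters' processing notes also name STAR 2.4 and SAMtools 1.2, and mouse builds, whereas the table holds human genes and all 10 members have the coordinates of GENCODE release 29 on GRCh38. The strand setting is not given in the sources used here. The title of the third S545A library reads S545S, and its group was taken from the genotype label. All 37 mitochondrial genes held 0 counts.

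The filter was filterByExpr with a minimum count of 10. TMM scaling and the robust quasi-likelihood test came from edgeR 4.0.16 in R 4.3.3. The biological coefficient of variation was 0.163. Levels are TMM-scaled CPM, and a pseudocount of 1 was used on the log2 scale. Total counts of 16410001 to 29504297 set the precision, and a count of 0 allows up to 3 counts, for counting error only. The fit was tested on simulated data. Members and lists were chosen with earlier results of these data known. All members are given in every library. Statistics are printed where groups did not overlap, the unadjusted p was under 0.05, or the fold change was the largest or smallest of a comparison. From each related list the 3 genes with the smallest 4-group p are named, with the 5 genes most like FOS and EGR1. One gene that this rule names is not reported here. Alternatives were DESeq2 1.42.0, limma-voom (limma 3.58.1), other normalizations and filters, only the groups compared, a replicate block, each library left out, and libraries 2 and 3 summed. Leaving out S534A 2 and ∆GAG-BG 1 together was added after seeing the data.

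The labels give the replicate numbers no shared batch. Between S545A and the control vector, deviations from the group mean correlated at 0.48 to 0.73 in libraries of the same number, so the numbers were taken as pairs there, on these correlations alone. In the other 5 comparisons at least 1 pair was under 0.1.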

Additional observations from a re-analysis of the deposited data

How the results depend on the processing

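No member was called by adjusted p in any comparison under any alternative: 0 with edgeR under other normalizations and filters, DESeq2, limma-voom, the replicate block, each library left out, libraries 2 and 3 summed, and S534A 2 and ∆GAG-BG 1 left out together. Over all genes, DESeq2 called 5 in S534A against ∆GAG-BG, 2 in S534A against the control vector and 1 in S545A against S534A. In each of these comparisons limma-voom called 1 and the main edgeR fit 0. The directions of EGR1 depended on single libraries. With S534A 2 and ∆GAG-BG 1 left out, its log2 fold change was 0.014 in S545A against S534A, -0.084 in S534A against ∆GAG-BG, -0.84 in S534A against the control vector and -0.76 in ∆GAG-BG against the control vector. With each library left out in turn, in the same order, EGR1 ran from -3.50 to 0.022, from -2.25 to 2.92, from -0.85 to 3.0 and from -0.76 to 2.25, and in S545A against the control vector from -1.27 to 0.017. JUN in ∆GAG-BG against the control vector ran from -0.15 to 0.14. In the fit without S534A 2 and ∆GAG-BG 1, the JUNB log2 fold change of S545A was 0.42 ± 0.091 (SE) against ∆GAG-BG. It was 0.33 ± 0.091 against S534A and 0.24 ± 0.080 against the control vector. Unadjusted edgeR p was 0.0012, 0.0053 and 0.014 in turn, and adjusted p 0.20, 0.91 and 0.997. At an unadjusted p under 0.05, 10.5%, 5.06% and 3.66% of all genes passed. The libraries left out were chosen after seeing the data and held the highest JUNB. The adjusted p of EGR1 in S545A against S534A ranged from 0.31 to 1.00 over the alternatives. Its unadjusted p was 0.025 with DESeq2, 0.27 with limma-voom and 0.080 with the replicate block, and with at least 10 counts required in every library EGR1 was not tested. Over the main fit and the alternatives, EGR1 passed an unadjusted p of 0.05 (edgeR or DESeq2) in 17 tests, JUNB in 6 and JUN in 4. JUND and IER3 passed in 2 each, and FOS and FOSB in 1 each. The lowest adjusted p among these tests was 0.196, for JUNB. The fits share most of their libraries, so repeated passes are not independent. Most EGR1 passes were in S545A against S534A. In the same fits of that comparison, 600 to 2633 of the 15795 to 16646 genes tested passed. Without S534A 3, 3 members passed in S534A against the control vector, as did 1953 of 16630 genes. The replicate block, with the numbers as pairs, called 0 members in S545A against the control vector and changed no other call. EGR1, FOS and FOSB rested on 6 to 489, 39 to 320 and 24 to 89 reads per library, and the part of depth in their errors was not tested.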

Other observations

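CDH5, an endothelial cadherin, was expressed at 168 to 431 CPM in these carcinoma cells, whereas PECAM1, another endothelial marker, did not exceed 0.77 CPM, and PTPRC of leukocytes held at most 2 counts. VIM, a mesenchymal marker, was 2343 to 3132 CPM.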
